A study of Mus musculus with 72 samples.

Results

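The *Ctnna2* break cluster is the set of DNA junctions that fell within the body of *Ctnna2* (ENSMUSG00000063063.12), a minus-strand gene that spans 76881637 to 77979699 of chromosome 6 in GRCm38/mm10. Every junction with its prey end in this interval was taken, from all libraries, which gave 1392 junctions of 591366. LAM-HTGTS, a translocation sequencing assay based on linear amplification, makes a double-strand break (DSB) at a chosen site with Cas9, the bait, and reads from a primer beside it into whatever other broken end, the prey, was joined to it. Of 60 such libraries, 45 came from Xrcc4/p53-deficient neural progenitor cells (called XP in the plots) and 15 from wild-type neural stem and progenitor cells (WT), and 23 used a bait on chromosome 6, the chromosome of *Ctnna2*, while 37 used baits on chromosomes 8, 12 or 14.

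The Xrcc4/p53-deficient cells were the parental line Nxp010, derived from embryonic stem cells, with the genotype NestinCre+Xrcc4-/-p53-/-, so that all their treatment groups rest on 1 line. The wild-type cells were primary cultures from brains of late-gestation C57BL/6J embryos. Genotype, cell source and sequencing run differ together and cannot be told apart. Cells received the solvent DMSO, low-dose aphidicolin (Aph, 0.5 µM for 72 hours and then 0.25 µM for 24 hours), the DNA polymerase theta inhibitor ART558 (5 µM and then 2.5 µM over the same times), or Aph together with ART558. Wild-type cells received only Aph or Aph plus ART558. With the chromosome 6 bait, 7 of 9 DMSO libraries lack the label "theta collection" that the others carry. The chromosome 14 libraries of Xrcc4/p53-deficient cells lack it as well. All of these are taken here as a second experiment, and those of chromosome 6 are marked pe in the plots. That this was the study's work on promoter and enhancer deletion is inferred, since no label names it. Every library of the line is labelled parental. Repeats of wild-type cells are described by the study as biological, and those of the Xrcc4/p53-deficient line as technical in one place and biological in another. The labels only number them, so p-values measure the spread between libraries, which may be technical. Junctions hold no expression values, so the identity of the cells was not checked against markers.

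*Ctnna2* encodes alpha-N-catenin, the neuronal alpha-catenin that links the cadherin and beta-catenin complex of cell contacts to actin filaments, and it acts in neurite and synapse formation. It is among the longest genes of the mouse. Very long genes that are transcribed in neural progenitors accumulate recurrent DNA break clusters when replication is slowed, which aphidicolin does by inhibiting the replicative polymerases. Xrcc4 is a partner of DNA ligase IV in classical non-homologous end joining, and polymerase theta joins ends through short stretches of shared sequence, microhomology, in the alternative pathway.

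The 4 guides set the broken end from which every junction was read, and they are given with their protospacer-adjacent motif (PAM) in capitals, as located in GRCm38/mm10.
chr6 bait, minus strand, 70950106 to 70950125: gagggttggaaatgctcgtaTGG
chr8 bait, minus strand, 59477701 to 59477720: gtcgaccatatgctaatcttAGG
chr12 bait, plus strand, 12994038 to 12994057: attccgccaaccctcgagatAGG
chr14 bait, plus strand, 83268830 to 83268849: ggcttagttatagtaggggcTGG
The chromosome 6 break lies 5.93 Mb from the nearer end of *Ctnna2*. Densities with that bait were therefore kept apart from the others, because ends of 1 chromosome meet more often than ends of different chromosomes. Shares of insertions and direct joins were taken within each bait and then averaged over baits, chromosome 6 included.

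Density is given as junctions per 1000 per Mb (JPTM), that is *Ctnna2* junctions per 1000 junctions of the library and per Mb of gene, where the 1000 are junctions off the bait chromosome or, for the chromosome 6 bait, junctions more than 1 Mb from the break. Libraries held 133 to 36999 junctions. In 57 of the 60 libraries at least 500 junctions lay off the bait chromosome, and the other 3, with 28, 137 and 339, held no junction in the gene and were left out of densities. A density counts breaks that were made, were not yet repaired and were joined to the bait, and these steps cannot be told apart, nor can a change in the number of copies of the locus. Reads carry no molecular identifiers, so intervals cover counting error only.

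With baits on other chromosomes, *Ctnna2* was hit more often in Xrcc4/p53-deficient cells under Aph than under DMSO. With the chromosome 8 bait the 3 DMSO libraries were at 0, 0 and 1.03 JPTM, and the 3 Aph libraries at 3.38, 1.76 and 2.01. With the chromosome 14 bait the values were 0, 1.14 and 0 in DMSO and 3.12, 3.85 and 1.63 in Aph. With the chromosome 12 bait they were 0 and 1.66 in DMSO against 1.25 and 2.07 in Aph. All 8 Aph libraries held *Ctnna2* junctions and 3 of the 8 DMSO libraries did, and the groups did not overlap with the chromosome 8 and chromosome 14 baits but overlapped with chromosome 12. Of the genes of at least 500 kb with 5 or more junctions, 21.2% of 66 with chromosome 8 and 23.6% of 72 with chromosome 14 were likewise higher without overlap. A DMSO library at 0 allows up to 0.840 JPTM in the deepest case and 3.91 in the shallowest, counting 3 junctions per library. Over the 3 baits the mean was 2.30 JPTM in Aph and 0.518 in DMSO, and density rose by 1.79 JPTM (two-sided exact permutation over libraries within baits, p = 0.0025, Benjamini-Hochberg adjusted p = 0.0497 over 179 genes of at least 500 kb). Within sequencing runs that hold both treatments it was 1.99 JPTM. The difference was the third largest of those genes, whose median difference was 0.215 JPTM, and 17.3% of them were higher at an exact p under 0.05.

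No difference between ART558 on its own and DMSO passed the test with these baits, and its sign was not settled. With chromosome 12 the ART558 libraries were at 0.360, 0.516 and 1.78 JPTM and with chromosome 8 at 0 and 0.661, and the mean over baits was 0.608 against 0.587 in DMSO (difference 0.0212, exact permutation p = 1, with 0.588% of 170 long genes higher, and 0.0536 within the run that holds both with chromosome 12). Leaving out single libraries moved the difference to between -0.39 and 0.44 JPTM. Under Aph plus ART558 the densities were 0.998 and 1.84 JPTM with chromosome 8 and 0.177, 1.45 and 0.612 with chromosome 12. The mean was 1.08 JPTM against 2.02 in Aph alone, a difference of -0.94 that did not pass the test (exact permutation p = 0.08, adjusted p = 0.661, with 5.21% of 192 long genes lower at an exact p under 0.05). Counting each position once per library gave -1.03 with p = 0.04 in the exact permutation, and no sequencing run holds both treatments, so a value within a run was not available. The difference of the Aph effects without and with ART558 was 0.962 JPTM (exact permutation p = 0.158, with 5.53% of 199 long genes higher). Aph plus ART558 was 0.474 JPTM above ART558 alone, which did not pass the test (exact permutation p = 0.367, with 3.7% of 189 long genes higher). The value was 0.0987 with the replicate number as a block and 0.264 to 0.698 with single libraries left out.

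In wild-type cells with the chromosome 14 bait, *Ctnna2* was near empty under Aph alone. Under Aph 1 of 4 libraries held a single junction, at 0.319 JPTM, and the other 3 were at 0, which allows up to 1.33 JPTM at the shallowest. Under Aph plus ART558 the densities were 1.74, 0.478, 0.634 and 0 JPTM, and the difference of 0.633 did not pass the test (exact permutation p = 0.143, with 3.9% of 154 long genes higher). It was 0.871 without the library at 0 of Aph plus ART558 (exact permutation p = 0.0286), and 0.291 without the one at 1.74. Xrcc4/p53-deficient cells under Aph exceeded wild-type cells under Aph by 2.79 JPTM, with no overlap between 3 and 4 libraries (exact permutation p = 0.0286, the smallest this design allows, adjusted p = 0.208). Of 131 long genes, 13.7% were higher by that test and 16.8% did not overlap in that direction.

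**Figure D1:**
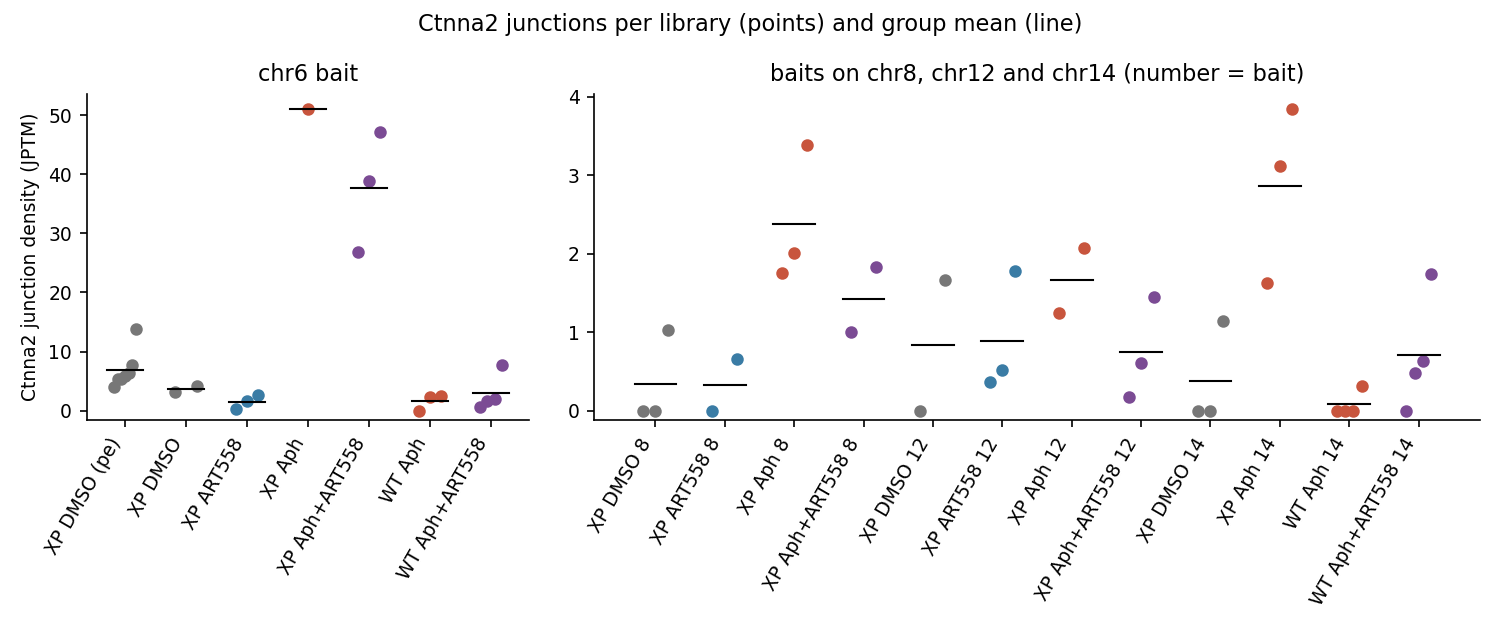
*Ctnna2* junction density (JPTM, linear axis) in every library used, as points, with the group mean as a line, for the chromosome 6 bait on the left and the other baits on the right, on separate scales. With the chromosome 6 bait the Aph library at 51.1 JPTM and the 3 Aph plus ART558 libraries from 26.8 to 47.2 lie above all other libraries, the highest of which is at 13.8.

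With the bait on its own chromosome, *Ctnna2* took a large part of all prey under Aph. The single Aph library of Xrcc4/p53-deficient cells held 322 junctions in the gene, 51.1 JPTM, and the 3 Aph plus ART558 libraries held 201, 227 and 118, or 47.2, 38.8 and 26.8 JPTM. The 2 DMSO libraries of the same experiment were at 4.13 and 3.23 JPTM and the 3 ART558 libraries at 1.67, 0.267 and 2.70. The 7 DMSO libraries of the other experiment ran from 4.05 to 13.8 JPTM with a median of 5.81. The lowest library with Aph, at 26.8 JPTM, was thus above the highest without it, and the Aph library was 13.9-fold above the mean of the DMSO libraries beside it. The Aph value rests on 1 library. Aph plus ART558 exceeded ART558 with 3 libraries each by 36.0 JPTM, more than any of the other 159 long genes that were compared (exact permutation p = 0.1, as small as it can be here, with 7.5% of the 160 not overlapping in that direction). Most of those genes lie off the bait's chromosome, which holds 17 of all 230 long genes. All these libraries come from 1 sequencing run, apart from the 7 DMSO libraries.

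The gene stood out from the rest of its chromosome. It held 23.6% of the chromosome 6 junctions more than 1 Mb from the break under Aph, and 28.9%, 25.3% and 24.9% in the 3 Aph plus ART558 libraries. Without Aph it held 2.43% and 1.87% in DMSO, 2.05% to 5.76% in the other DMSO libraries, and 0.299% to 2.13% in ART558. Among 230 long genes it ranked first in both DMSO groups, in Aph and in Aph plus ART558, and second in ART558. Only 17 of these genes lie on the bait's chromosome, and among those 17 its ranks were the same. The next gene of its chromosome was *Ccser1* in both Aph groups, at 9.85 JPTM in Aph and 5.48 in Aph plus ART558. The 1 Mb flanks did not share the high density, with 1.22 JPTM beside the gene start and 0.871 beside its end under Aph (7 and 5 junctions), against 2.43 and 1.90 in DMSO. Both flanks in Aph were thus below their DMSO values while the gene between them was above.

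The comparison of Aph plus ART558 with Aph alone turned on the total used. Per 1000 junctions more than 1 Mb from the break it was -13.5 JPTM, with all 3 libraries below the single Aph library, as in 33.3% of 138 long genes. An exact permutation of 3 against 1 libraries cannot go below p = 0.25, so no call could be made. Per 1000 chromosome 6 junctions it was 25.3 JPTM in the other direction, beside chromosome 6 junctions outside the gene of 182 per 1000 in Aph and a mean of 114 in Aph plus ART558. ART558 alone was below DMSO by 2.14 JPTM, 3 libraries against 2 without overlap (exact permutation p = 0.2, smallest possible 0.1, with 8.64% of 162 long genes not overlapping in that direction). Adding the 7 other DMSO libraries gave a difference of -4.66 (exact permutation p = 0.0318). These 7 come from other sequencing runs than the ART558 libraries, their mean was 6.93 JPTM against 3.68 in the 2 DMSO libraries of the same run, and the permutation ignored the experiment, so treatment and experiment cannot be told apart in this value.

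Wild-type cells with the same bait showed no such accumulation. The Aph libraries were at 0, 2.38 and 2.58 JPTM with 0, 2 and 5 junctions, and the Aph plus ART558 libraries at 1.94, 7.76, 1.71 and 0.575 with 4, 8, 3 and 1 junctions. Of these last 16 junctions, 6 lay at 1 position in 3 libraries and 4 at another position in 2 libraries. Whether these are separate events was not tested. The difference of 1.34 JPTM between both treatments did not pass the test (exact permutation p = 0.771, with 0% of 52 long genes higher at an exact p under 0.05), and it was -0.246 without the library at 7.76 JPTM. Under Aph plus ART558, Xrcc4/p53-deficient cells exceeded wild-type cells by 34.6 JPTM (exact permutation p = 0.0286, as small as 3 against 4 libraries allow, adjusted p = 0.141 over 123 long genes, of which 20.3% were higher). The change with ART558 differed between the genotypes by -14.8 JPTM (exact permutation p = 0.636, with 0% of 158 long genes lower) and by 21.2 per 1000 chromosome 6 junctions.

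Junctions were not spread evenly along the gene. *Ctnna2* is 1098063 bp long, its exons make up 0.633% of it, and intron 7 of the transcript Ctnna2-202, from 77143944 to 77605180, is 461 kb long and covers 42.0% of the body. *Lrrtm1*, a gene for a synaptic adhesion protein on the opposite strand, lies within that intron from 77242689 to 77257791. Under Aph with the chromosome 6 bait, 272 of 322 junctions (84.5%) fell in intron 7, and in the 3 Aph plus ART558 libraries 92.0%, 85.9% and 93.2% did. Over all 9 DMSO libraries the share ranged from 21.4% to 66.7%, so that none of them reached an Aph library. *Lrrtm1* itself held 7 junctions in Aph and 12 in Aph plus ART558, and exons held 4 and 2.

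In deciles of the gene's length counted from the transcription start, the density under Aph was 108.7 JPTM on average over deciles 4 to 7 and 12.7 over the others. In Aph plus ART558 it was 83.0 and 7.35. In the DMSO libraries of the same experiment it was 3.99 and 3.48, and in the 7 DMSO libraries of the other experiment 8.42 and 5.80. At the ends of the gene Aph plus ART558 was not above DMSO, with 2.07 JPTM in decile 1 and 4.13 in decile 10 against 4.30 and 5.53 in the DMSO libraries beside it. The Aph library was at 6.35 and 7.93 JPTM there. With the other baits, 37 of 52 junctions in Aph (71.2%) and 22 of 26 in Aph plus ART558 (84.6%) lay in the same 4 deciles, against 2 of 12 in DMSO. Of those 12 junctions, 10 came from 1 chromosome 12 library, both in the middle deciles and all 5 in decile 9 among them. The middle of the gene was the most hit part under Aph with the same-chromosome bait and with baits elsewhere.

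**Figure D2:**
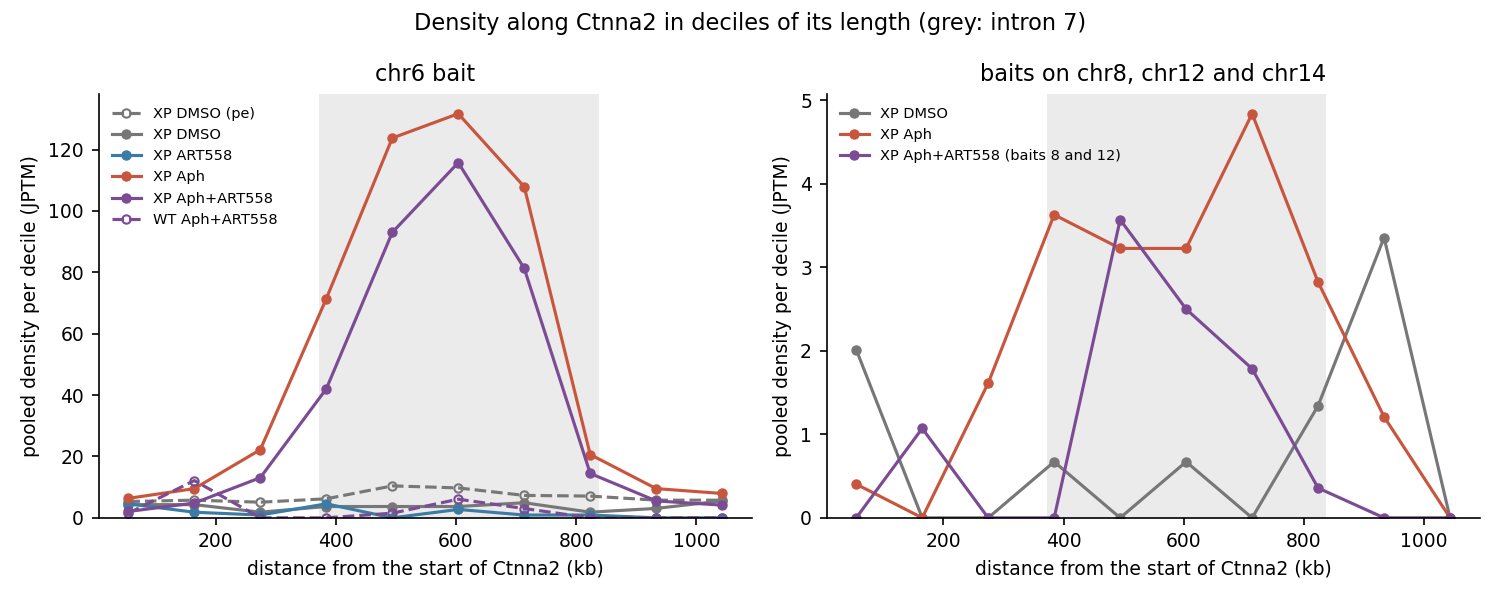
Pooled junction density (JPTM) in deciles of the length of *Ctnna2* against the distance from its transcription start in kb, with intron 7 in grey. The left plot shows the chromosome 6 bait, the right plot the other baits in Xrcc4/p53-deficient cells. Aph and Aph plus ART558 rise within deciles 4 to 7, where with the chromosome 6 bait their averages are 108.7 and 83.0 JPTM against 3.99 and 8.42 in both DMSO groups.

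With the chromosome 6 bait under Aph, the prey strands had different medians, both within that peak. A prey on the plus strand is read toward higher coordinates, which for this minus-strand gene means toward its start, and a prey on the minus strand is read toward the gene end. Under Aph with the chromosome 6 bait, plus-strand junctions had their median 469 kb from the start (position 77510856) and minus-strand junctions 637 kb (position 77342924), a gap of 168 kb. Of the plus-strand junctions 81.2% lay before the midpoint of both medians, and of the minus-strand junctions 76.7% lay beyond it, where medians in this order put most of each strand on its own side by construction. In DMSO, with the midpoint taken likewise, the shares were 64.0% and 63.5% over 9 libraries. In the 3 Aph plus ART558 libraries the plus medians were 493, 476 and 463 kb and the minus medians 605, 644 and 659 kb, so that the gap was 112, 168 and 196 kb. In Aph with the other baits the medians were 415 and 695 kb over 52 junctions, but 1 chromosome 12 library of 14 junctions had the reverse order, with the plus median at 639 kb and the minus median at 577 kb. In DMSO with the chromosome 6 bait the medians were 462 and 640 kb over 369 junctions, but the junctions were broadly spread, with interquartile ranges of 394 and 357 kb in the 7 libraries of the other experiment against 135 and 157 kb under Aph.

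With the order seen at the chromosome 6 bait, prey reads of both strands ran outward from the middle of the gene. Minus-strand prey made up 189 of 322 junctions under Aph, so that 41.3% were on the plus strand, and 38.8% were in Aph plus ART558 and 43.6% in DMSO. With the other baits 25 of 52 junctions under Aph were on the plus strand (48.1%). On the shared chromosome the strand also sets the kind of rearrangement: the bait read points away from the side of the break on which *Ctnna2* lies, so a minus-strand prey continues the bait in the same orientation and a plus-strand prey is inverted against it.

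**Figure D3:**
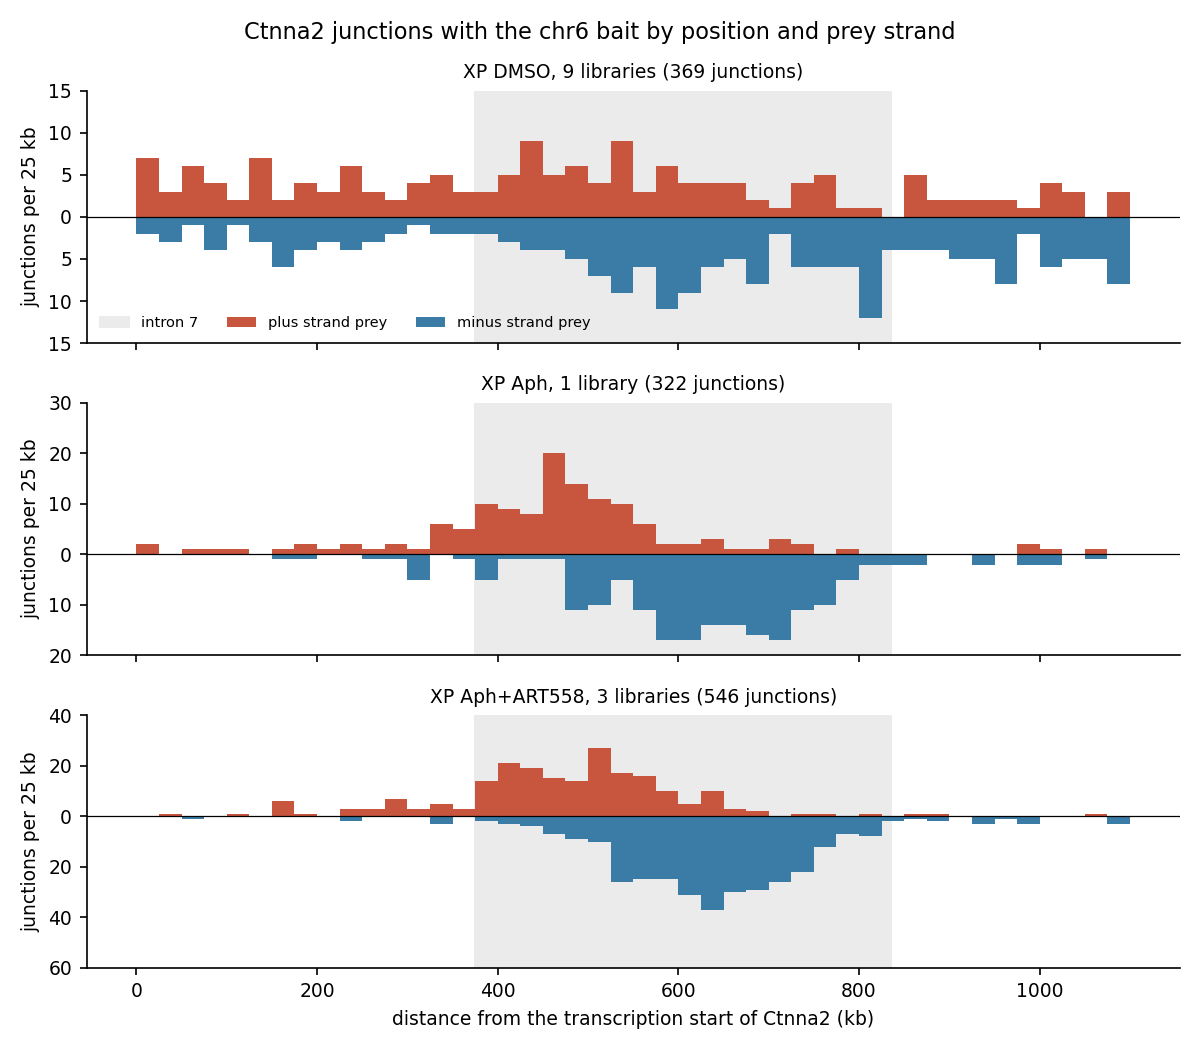
*Ctnna2* junctions per 25 kb with the chromosome 6 bait against distance from the transcription start in kb, plus-strand prey above the line and minus-strand prey below, on separate vertical scales per treatment. DMSO (9 libraries, 369 junctions) is spread over the gene, and in Aph (322) and Aph plus ART558 (546) plus-strand prey lie nearer the start than minus-strand prey within intron 7 (grey).

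Junction sequences show how ends were joined. In each line 30 bases of bait read toward the break and 30 bases of prey flank the capitals, which are the microhomology or the inserted bases, and a direct join has none. Shown are the junctions nearest the median position of their strand, and for insertions those of median length.
Aph, 2 bp microhomology, plus strand at 77508292: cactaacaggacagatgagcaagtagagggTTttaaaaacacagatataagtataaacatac
Aph, 2 bp microhomology, minus strand at 77342772: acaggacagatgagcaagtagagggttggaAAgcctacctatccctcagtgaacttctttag
Aph plus ART558, direct join, plus strand at 77476992: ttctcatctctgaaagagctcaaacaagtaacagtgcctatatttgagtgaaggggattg
Aph plus ART558, direct join, minus strand at 77334533: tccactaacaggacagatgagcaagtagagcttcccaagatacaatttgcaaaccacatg
Aph plus ART558, 6 inserted bases, plus strand at 77395997: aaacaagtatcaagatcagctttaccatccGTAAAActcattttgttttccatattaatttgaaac
Aph plus ART558, 6 inserted bases, minus strand at 77191256: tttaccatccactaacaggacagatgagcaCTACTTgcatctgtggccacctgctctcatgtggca
The bait ends stop at different distances from the break. For comparison, the uncut bait strand reads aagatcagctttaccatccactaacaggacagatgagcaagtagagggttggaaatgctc up to the break.

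In Xrcc4/p53-deficient cells, inserted bases were more frequent in Aph plus ART558 than in Aph with every bait used for both. With the chromosome 6 bait 60 of 322 junctions under Aph had an insertion, 18.6% (95% Wilson interval 14.8 to 23.2). In the 3 Aph plus ART558 libraries 96, 107 and 70 junctions had one, or 47.8%, 47.1% and 59.3%, and pooled 273 of 546. The DMSO libraries were at 26.5% and 11.5%, and at 13.2% to 28.6% in the other experiment. Each Aph plus ART558 library was therefore above every DMSO library and above the Aph library. With the chromosome 8 bait 0 of 12 junctions in Aph (upper Wilson limit 24.2%) and 6 of 13 in Aph plus ART558 had an insertion, and with chromosome 12 the counts were 2 of 22 and 4 of 13.

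Averaged over the 3 baits, the share rose from 9.24% in Aph to 42.3% in Aph plus ART558, by 33.1 percentage points (exact permutation p = 0.00125, adjusted p = 0.0425 over 34 long genes and 0.00312 over the 5 insertion comparisons made). The rise was the second largest of the 34 long genes, whose median was 12.1 points, and 11.8% of them were higher at an exact p under 0.05. With chromosomes 8 and 12 no sequencing run holds both treatments, so treatment and run cannot be told apart there. With chromosome 6 both share 1 run, but Aph has 1 library. One Aph plus ART558 library of chromosome 8 held no *Ctnna2* junction, and without it the p was 0.0025 in the exact permutation. Leaving out either of the 2 Aph libraries of chromosome 12 ended the call (31.3 points with p = 0.109 and 36.1 points with p = 0.0781 in exact permutations). Against ART558 alone the share was higher by 34.9 points (exact permutation p = 0.00075, adjusted p = 0.0075 over 10 long genes, 30% of them higher). With chromosome 12 these treatments also came from different sequencing runs. In that comparison the ART558 group of chromosome 8 held 1 junction, and baits 6 and 12 alone gave 29.3 points (exact permutation p = 0.005), while leaving out libraries with no junction gave the same 34.9 points (exact permutation p = 0.000833). No such difference appeared between ART558 and DMSO (0.741 points, exact permutation p = 0.9, with 0% of 7 long genes higher), or between Aph and DMSO (2.57 points, exact permutation p = 0.611, with 0% of 14 higher), at junction numbers of 1 to 18 per group with ART558. In wild-type cells the share was 12.5 points higher with ART558 under Aph (exact permutation p = 0.529, over 33 junctions), and 1.74 to 17.7 points with single libraries left out. These comparisons were added after the insertions had been seen.

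Insertions in the same libraries were less frequent elsewhere. On other chromosomes 18.4%, 22.5% and 33.9% of the junctions of the 3 Aph plus ART558 libraries had one, and on chromosome 6 outside the gene 23.9% to 31.7%. *Ctnna2* was 24.7 to 29.4 points above the other chromosomes in each of the 3 libraries. In the Aph library the 3 places were alike, at 18.6% in the gene, 19.2% on other chromosomes and 17.9% on chromosome 6 outside it. Both strands shared the high value under Aph plus ART558, with 52.8% of plus-strand and 48.2% of minus-strand junctions.

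**Figure D4:**
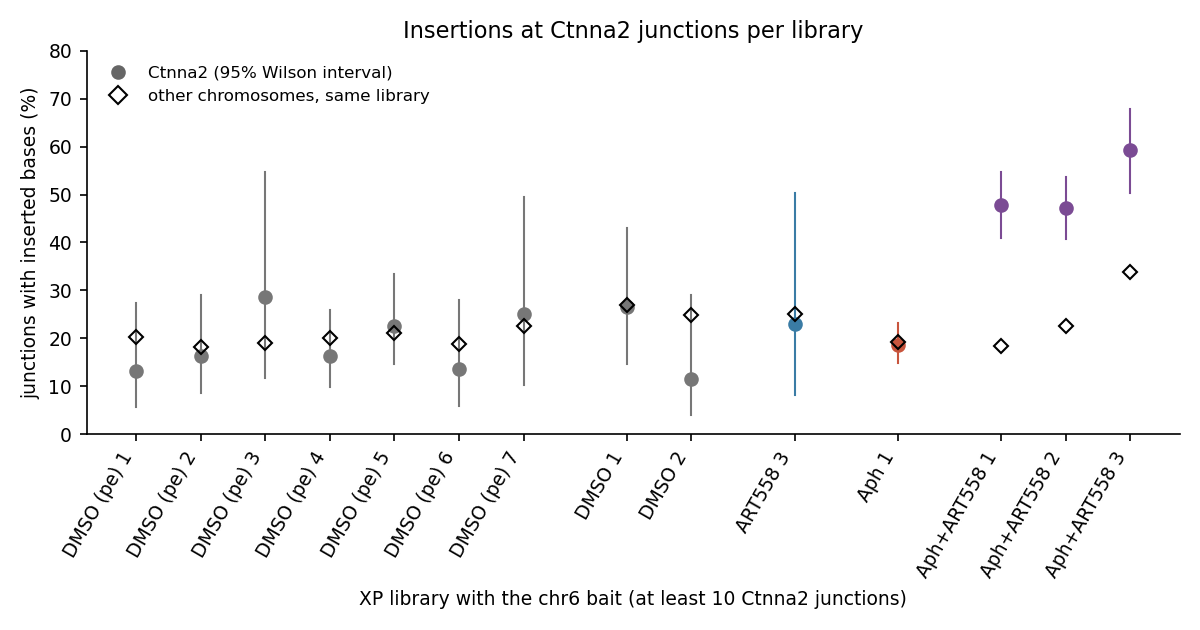
Share of *Ctnna2* junctions with inserted bases (%) in each library of Xrcc4/p53-deficient cells with the chromosome 6 bait and at least 10 junctions in the gene, with 95% Wilson intervals, and the share on other chromosomes in the same library as open diamonds. In Aph plus ART558 the gene is at 47.1% to 59.3% and the diamonds at 18.4% to 33.9%, while in every other library plotted the interval of the gene includes the diamond.

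The length of the inserted runs was not tested. Their median was 4 bases in the Aph library and 6.5, 6 and 4.5 in the 3 Aph plus ART558 libraries, within the 1 to 7 bases of the DMSO libraries. Of the insertions, 12 of 60 in Aph and 99 of 273 in Aph plus ART558 had 10 or more bases, with a longest run of 30. Of those 99 insertions, 31 (31.3%, interval 23.0 to 41.0) held a run of at least 8 bases that also lies within 100 bases of the chromosome 6 break on either strand. The same search around the chromosome 8 break, which was not cut in these libraries, found 6 (6.06%). Around the prey end itself 16 had such a run, and 42 had one at either place. Under Aph 7 of the 12 long insertions had one at the bait, and in DMSO 0 of 3 and, in the other experiment, 1 of 12. Insertions of 10 or more bases at junctions with other chromosomes in the same Aph plus ART558 libraries had one at the bait in 209 of 1128 cases (18.5%, interval 16.4 to 20.9). On other chromosomes the share was 16.5% in Aph, 17.5% in ART558, and 22.7% and 23.3% in both DMSO groups, so such runs were found there without either drug as well. The longest such runs are shown with the whole insertion in capitals.
29 inserted bases, minus strand at 77483809: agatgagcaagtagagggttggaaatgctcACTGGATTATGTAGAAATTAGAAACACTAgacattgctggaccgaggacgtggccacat
23 inserted bases, plus strand at 77374102: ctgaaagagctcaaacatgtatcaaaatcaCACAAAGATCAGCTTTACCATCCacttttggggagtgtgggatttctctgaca
In the first, 20 bases of the insertion, atgtagaaattagaaacact, are also found at 70950071 to 70950090, across the break from the bait primer, and in the second 19 bases, aagatcagctttaccatcc, at 70950150 to 70950168, on the primer side.

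Among the junctions without an insertion, 2 bp was the most frequent microhomology under Aph with the chromosome 6 bait, 71 of 262 junctions with 0 to 10 bp (27.1%), as in DMSO (29.3% over 9 libraries). Under Aph plus ART558 1 bp was most frequent, with 65 of 271 junctions, and 2 bp made up 21.0%. Joins with 3 bp or more were 54.6% in Aph and 38.4% in Aph plus ART558. Direct joins, with 0 bp, were 17 of 262 in Aph (6.49%, interval 4.09 to 10.1) and 45 of 271 in Aph plus ART558 (16.6%, interval 12.6 to 21.5). The 3 Aph plus ART558 libraries were at 14.4%, 21.8% and 8.33%, the last within the interval of the Aph library. Averaged over baits 6, 8 and 12 the share of direct joins was 5.87% and 17.7%, a difference of 11.8 points that did not pass the test (exact permutation p = 0.0512, or 0.0417 when libraries with no such junction were left out), and the median over 22 long genes was 12.2 points, 0% of them higher at an exact p under 0.05. Leaving out single libraries moved it to between 7.08 and 15.5 points, with p from 0.00625 to 0.25 in exact permutations. No sequencing run holds both treatments with baits 8 and 12, so treatment and run cannot be told apart there. Junctions on other chromosomes in the same libraries had more direct joins, 23.6% in Aph and 31.2% in Aph plus ART558. ART558 against DMSO gave 1.75 points (exact permutation p = 0.872), and Aph plus ART558 against Aph in wild-type cells -27.7 points over 23 junctions (exact permutation p = 0.529).

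**Figure D5:**
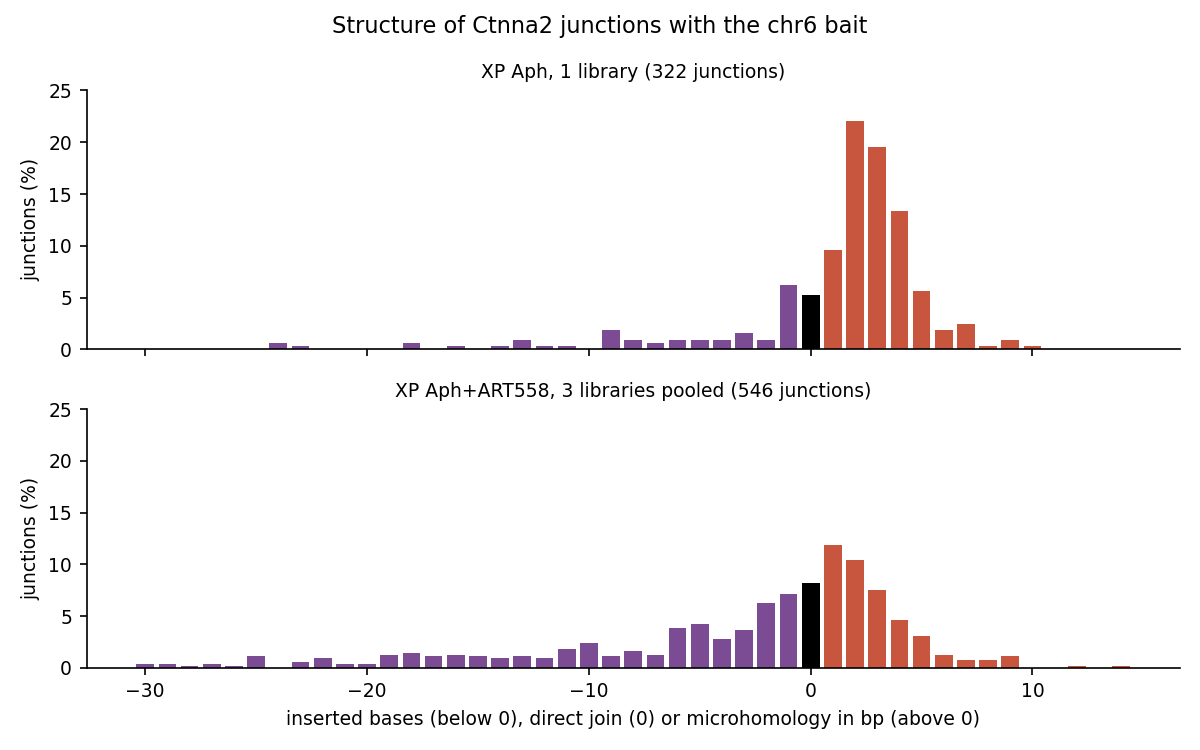
Share of *Ctnna2* junctions (%) by structure with the chromosome 6 bait in Xrcc4/p53-deficient cells, with inserted bases to the left (purple), direct joins at 0 (black) and microhomology in bp to the right (red). Aph (1 library, 322 junctions) peaks at 2 bp with 22.0% of all junctions, and Aph plus ART558 (3 libraries, 546 junctions) peaks at 1 bp with 11.9% and has a tail of insertions up to 30 bases.

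Other catenins and their partners were measured with baits 8, 12 and 14 in Xrcc4/p53-deficient cells. Tests were limited to genes of at least 500 kb, so besides *Ctnna2* only 2 genes of the list were tested. *Ctnnd2*, which encodes the neuronal delta-catenin that binds the cadherin tail, had 6 junctions in DMSO and 26 in Aph, 0.516 and 1.34 JPTM pooled, and a difference of 0.875 JPTM (exact permutation p = 0.0367, adjusted p = 0.234), so 1 of the 2 passed before adjustment, where 17.3% of the 179 long genes did, and 0 after it. *Ctnna3*, the alpha-T-catenin gene and longer than *Ctnna2* at 1574 kb, had 11 and 15 junctions, 0.515 and 0.422 JPTM, and a difference of -0.177 (exact permutation p = 0.338). Shorter members had 0 to 6 junctions under Aph: 5 in *Cdh2*, the N-cadherin gene, 6 in *Vcl* for vinculin, which lies on chromosome 14 and was counted with baits 8 and 12 only, 4 in *Ctnna1*, 1 each in *Ctnnb1* for beta-catenin and *Ctnnal1*, and 0 in *Ctnnd1* and *Jup* for plakoglobin. At these sizes the counts set no order between them. *Lrrtm1* had 0 in DMSO and 4 in Aph.

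The long genes whose density followed that of *Ctnna2* most closely over 12 groups of baits 8, 12 and 14 were *Fat3*, *Sntg1* and *Nkain2*, with Pearson correlations of log2 group means of 0.84, 0.83 and 0.83 among 100 genes compared. All these genes were measured in the same libraries, and what lies behind the correlations was not tested. *Ctnna2* was at 2.87 JPTM in Aph with chromosome 14, *Nkain2* at 1.77, *Sntg1* at 0.728 and *Fat3* at 0.638. In DMSO with that bait they were at 0.380, 0.397, 0 and 0.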

How the data were processed

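Junction tables of 60 LAM-HTGTS libraries were used as deposited by the authors, who sorted reads by barcode, trimmed them, mapped them to mm10 in the HTGTS pipeline and removed unreliable junctions. The deposited values are read positions, coordinates and strands, with no normalization, replicate pooling or count per gene. Rows lacking a value were dropped (1 row), and only the chromosomes 1 to 19, X and Y were counted. Gene bounds came from the GENCODE annotation and bait sites from guide sequences matched to the RefSeq GRCm38 genome.

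Microhomology was the overlap of bait and prey in the read, counted up to 10 bp, and insertions were bases belonging to neither. Repeated positions were kept, and 1281 positions per library underlie the 1392 junctions. Groups came from the labels. Comparisons used two-sided exact permutations of libraries within baits, with Benjamini-Hochberg adjustment over protein-coding genes of at least 500 kb with 5 or more junctions, on no bait chromosome of the comparison except with the chromosome 6 bait, and a threshold of 0.05. Insertion and direct-join shares were adjusted over long genes with at least 20 junctions per treatment. *Ctnna2*, the catenin list and the comparisons were chosen with earlier results of these data known. The named genes were that list, *Lrrtm1* and the 3 long genes most alike over groups. The tests were tried on simulated junctions with known changes. These were drawn without added spread between libraries and without repeated positions, so they do not give the error rate in the real libraries. Of chromosome 6 junctions within the gene, 91.8% matched the reference over their first 12 prey bases, and those shown were taken from these. Densities have limited precision, and 3 junctions correspond to 0.240 JPTM in the deepest chromosome 6 library. Alternatives covered scaling, repeats, filters and single libraries. GRO-seq and Repli-seq tables were not used here. Python 3.11.15, NumPy 2.4.6, pandas 2.3.3, SciPy 1.17.1 and Matplotlib 3.10.9 were used.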

Additional observations from a re-analysis of the deposited data

Results flagged for a closer look

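In 7 sets of 4 to 7 libraries, each 1 measure in 1 group (density in 4 groups, and the insertion share, direct-join share and strand gap in 1 of these), 3 values lay far from the others of their set, where chance flags about 1 in 20 sets. The fifth DMSO library of the second experiment with the chromosome 6 bait had a *Ctnna2* density of 13.8 JPTM, against 4.05 to 7.74 in the other 6. The third library of that group had a gap of 537.6 kb between the strand medians, from 14 junctions. In wild-type cells under Aph with the chromosome 14 bait, the first library was at 0.319 JPTM, from 1 junction, and the other 3 were at 0. With 3 values tied at 0 any junction in the remaining library is flagged, so the rate of 1 in 20 does not hold for this set.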

How the results depend on the processing

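The rise with Aph over DMSO at baits 8, 12 and 14 stayed past the threshold under all 23 alternatives run (1.39 to 2.06 JPTM, unadjusted exact permutation p 0.000833 to 0.0156). The insertion share of Aph plus ART558 over Aph stayed past it under 17 of 19 alternatives, and was 31.3 and 36.1 points without either chromosome 12 Aph library (31.0 to 36.1 over all single libraries left out). Aph plus ART558 minus Aph at baits 8 and 12 passed with positions counted once (-1.03 JPTM) and with no minimum of junctions (-1.18). ART558 minus DMSO at those baits turned negative with summed counts (-0.0470), no minimum (-0.0339), the replicate block (-0.0314) and some libraries left out (-0.39 to 0.44). At bait 6 it passed with the other DMSO libraries added (-4.66). With the chromosome 6 total, Aph plus ART558 minus Aph was 25.3 and its difference between genotypes 21.2. Dropping a library moved the wild-type difference at bait 14 to between 0.29 and 0.87 and at bait 6 to between -0.25 and 2.15, with both signs. It moved the genotype differences to between 2.29 and 3.40 (bait 14) and between 29.8 and 40.0 (bait 6), where the test could no longer pass. Direct joins in Aph plus ART558 minus Aph passed with empty libraries left out (11.8 points). For direct joins dropping a library gave 7.08 to 15.5 points in Aph plus ART558 minus Aph, -7.78 to 5.95 in ART558 minus DMSO and -35.2 to 2.27 in wild-type cells. For insertions it gave -1.42 to 3.56 in ART558 minus DMSO and -0.68 to 5.40 in Aph minus DMSO, and -0.74 in the former with at least 2 inserted bases. The cause of these changes was not tested. Replicate numbers do not pair the libraries (3 of 31 same-number pairs correlated above 0.1, median -0.02), and with them as a replicate block no test changed its side of the threshold. Not run were the single Aph library of bait 6 left out, a replicate block for it, and a value within 1 run for Aph plus ART558 minus Aph. Over all, 20 alternatives turned a direction, 16 lost a call, 10 gained one and 302 did neither. A single junction decides many values outside bait 6.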
